A study of Mus musculus with 14 samples.

Results

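Leukocyte adhesion molecules and integrins were followed as a group of 10 genes among the 46904 listed in the expression table. They were chosen by name for their place in leukocyte recruitment: the endothelial adhesion molecules Icam1 and Vcam1, the selectins Sele and Selp, the selectin ligand Selplg, and the integrin chains Itgam, Itgal, Itgb2, Itga4 and Itga5. All 10 genes were found, and all 10 were above 0 in at least 2 libraries and entered the tests. RNA was sequenced from brain hemispheres of male mice, 12 weeks old, on a C57BL/6J background, 48 h after a transient middle cerebral artery occlusion (MCAO) of 20 min. The mice were wild-type (Cort+/+) or constitutively lacked the neuropeptide cortistatin in every tissue (Cort-/-). In both genotypes, the ischemic hemisphere (MCAO) was compared with the healthy contralateral hemisphere (CL), so every library, the CL ones included, came from an animal that had undergone stroke surgery. There were 3 CL and 3 MCAO libraries from Cort+/+ mice, and 3 CL and 5 MCAO libraries from Cort-/- mice. According to the methods, replicates that did not group clearly could be set aside where the spread was large, and the Cort+/+ MCAO libraries carry the numbers 2, 3 and 4. Nothing in the labels ties a CL library to the MCAO library of the same mouse.

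Leukocytes leave the blood in steps. Selectins on activated endothelium and platelets catch glycoproteins such as PSGL, the product of Selplg, and slow the cell down. Integrins on the leukocyte are then switched to a high-affinity state and bind immunoglobulin-like adhesion molecules on the vessel wall, which arrests the cell before it crosses. Each integrin is a pair of an alpha and a beta chain. In the brain, resident microglia also carry several of these molecules, above all Itgam with Itgb2 (the receptor known as CD11b/CD18, which binds ICAM, fibrinogen and complement fragments) and Selplg. A whole-hemisphere library therefore holds transcripts from vessel walls, microglia and any leukocytes inside vessels or tissue, and more cells of one type cannot be told apart from more RNA per cell.

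Libraries held 25989679 to 43032304 recovered reads. Cort, the deleted gene, ran from 2.61 to 5.68 RPKM (reads scaled by transcript length and library size) in the 6 Cort+/+ libraries and from 0 to 0.136 RPKM in the 8 Cort-/- libraries, as their labels state. Endothelial markers were present throughout, with a sum over 12 genes of 91.5 to 139 RPKM, and neuronal markers summed to 1709 to 2326 RPKM, as brain tissue should hold.

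To place the genes and show what lies in front of them, promoter windows from RefSeq (GRCm38.p6, from 250 bases before to 50 after the annotated start) were placed on GRCm39 by an exact match. Windows were found for 6 of the 10 genes, namely Icam1, Sele, Selp, Itgam, Itga4 and Itga5, and were not found for Vcam1, Selplg, Itgal and Itgb2. Those of the inducible endothelial molecules and of Itgam, whose transcript rose in MCAO, are printed here 5′ to 3′ on the strand of the gene, with matches to the motifs searched in capitals.
Icam1 (chr9:20926986-20927285, plus strand): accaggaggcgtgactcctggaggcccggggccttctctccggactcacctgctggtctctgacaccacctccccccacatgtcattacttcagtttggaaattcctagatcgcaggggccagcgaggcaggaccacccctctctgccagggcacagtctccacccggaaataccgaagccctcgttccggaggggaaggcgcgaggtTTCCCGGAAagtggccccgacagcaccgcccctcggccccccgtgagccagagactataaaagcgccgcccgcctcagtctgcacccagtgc
Sele (chr1:163875553-163875852, plus strand): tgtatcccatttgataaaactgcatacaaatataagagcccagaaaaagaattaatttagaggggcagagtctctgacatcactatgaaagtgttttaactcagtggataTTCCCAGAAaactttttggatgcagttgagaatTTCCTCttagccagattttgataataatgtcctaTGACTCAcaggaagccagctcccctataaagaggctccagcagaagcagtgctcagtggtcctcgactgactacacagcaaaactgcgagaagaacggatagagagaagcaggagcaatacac
Selp (chr1:163942583-163942882, plus strand): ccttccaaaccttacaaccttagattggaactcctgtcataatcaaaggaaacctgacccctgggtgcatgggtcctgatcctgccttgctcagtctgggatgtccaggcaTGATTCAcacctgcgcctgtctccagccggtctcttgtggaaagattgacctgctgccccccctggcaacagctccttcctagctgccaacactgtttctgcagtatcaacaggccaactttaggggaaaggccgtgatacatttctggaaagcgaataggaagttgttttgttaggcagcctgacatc
Itgam (chr7:127661562-127661861, plus strand): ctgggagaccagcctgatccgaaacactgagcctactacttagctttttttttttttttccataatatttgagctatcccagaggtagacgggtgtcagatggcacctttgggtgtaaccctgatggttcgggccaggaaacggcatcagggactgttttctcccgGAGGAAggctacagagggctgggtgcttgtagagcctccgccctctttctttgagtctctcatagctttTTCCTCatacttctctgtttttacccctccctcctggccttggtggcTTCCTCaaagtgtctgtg
The motifs were the NF-kappaB consensus, the ETS core GAGGAA, AP-1 TGANTCA, STAT TTCNNNGAA and the GATA core AGATAA, all searched on both strands. Itgam held 3 ETS cores, which end 79 and 10 bases before the start and 38 bases after it. Sele held one match each to STAT, ETS and AP-1, Selp a single AP-1 match ending 133 bases before the start, and Icam1 a single STAT match ending 34 bases before it. Itga5 held 1 ETS core, and Itga4 held no match to any of the 5 motifs. No matches overlapped, and none of the 6 windows held the strict NF-kappaB consensus or the GATA core. Among all 32851 windows of the table, 28.3% held an ETS core, 7.81% an AP-1 match, 8.30% a STAT match, 8.46% the NF-kappaB consensus and 11.2% a GATA core. These letters describe the windows and are not measurements of binding. The RefSeq starts of Icam1, Sele, Itga4 and Itga5, and by a few bases that of Itgam, lie downstream of the GENCODE gene starts given with their values. For Selp both starts coincide.

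**Figure D1:**
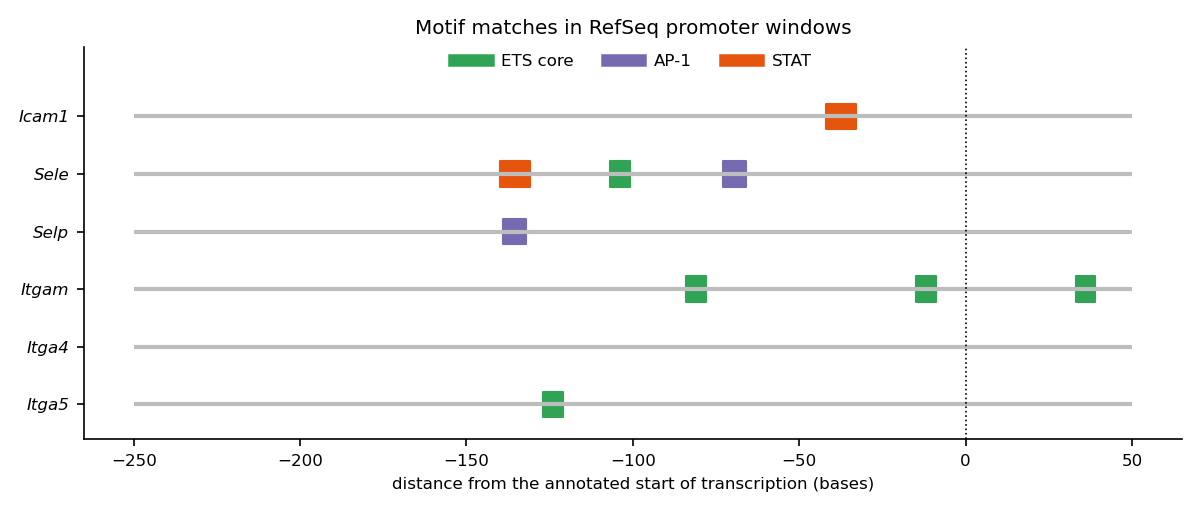
Positions of motif matches in the RefSeq promoter windows of 6 genes, with the distance from the annotated start of transcription in bases on the x axis and one line per gene. Itgam holds 3 ETS cores, Sele one match to each of 3 motifs, and Itga4 none.

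To determine whether these genes responded to ischemia, a single limma model over the 4 groups was fitted to log2(RPKM + 0.1), and a change was called at a Benjamini-Hochberg adjusted p under 0.05 over 46102 genes. Itgam and Itgb2 rose in the MCAO hemisphere of Cort-/- mice. They were 2 of 10 genes, against 1.72% of all genes called and 1.34% called and higher. Over the mean of both genotypes, Vcam1, Selplg, Itgam, Itgb2 and Itga5 rose, which are 5 of 10 genes against 3.43% of all genes called and 2.52% called and higher. Many of all genes are barely expressed. With only the 17476 genes that averaged at least 0.5 RPKM tested, the same 5 were called, beside 2180 genes called and 1348 called and higher. After rescaling to TPM the same 5 genes were called, while the split over all genes went from 1163 higher and 416 lower to 1279 higher and 206 lower. In Cort+/+ mice alone limma called 0 of 10, against 0.0108% of all genes called and 0.00868% called and higher. There 5 of the 10 had an unadjusted p under 0.05, as did 3626 of all 46102 genes. limma voom on the recovered reads called 0 in Cort+/+ mice, 5 in Cort-/- mice and 6 over both genotypes. The counts over all 46102 genes were 54, 1415 and 2172. The median log2 fold change of the 10 genes was 0.53 in Cort+/+ mice, 0.78 in Cort-/- mice and 0.63 over both, while the median over 15063 genes that averaged 1 RPKM or more was −0.02, −0.03 and −0.03.

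**Figure D2:**
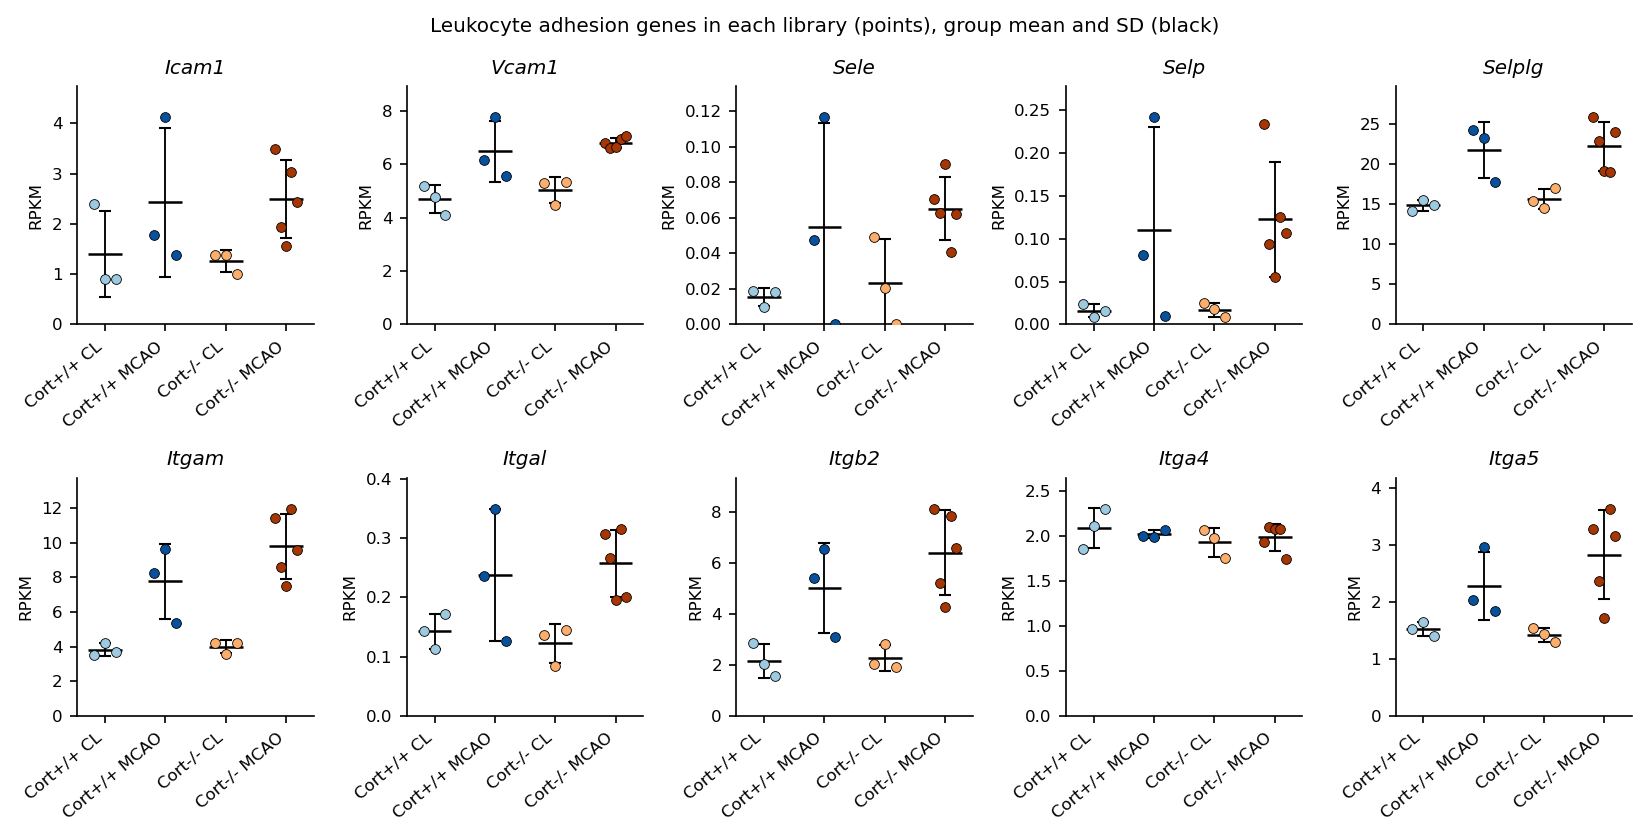
RPKM of the 10 genes in each library (points) by group, with the group mean and SD in black, each panel on its own linear axis from 0, where SD bars are cut. Every MCAO library lies above every CL library for Itgam, Itgb2, Selplg, Vcam1 and Itga5, while the 4 groups overlap for Itga4.

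Expression spanned a wide range, and RPKM, which is per length, allows the genes to be ranked. In the 6 CL libraries the order was Selplg (15.2 ± 0.973 RPKM, SD), Vcam1 (4.87 ± 0.496), Itgam (3.90 ± 0.356), Itgb2 (2.21 ± 0.531), Itga4 (2.01 ± 0.196), Itga5 (1.48 ± 0.120), Icam1 (1.33 ± 0.5678), Itgal (0.132 ± 0.02998), Sele (0.0194 ± 0.0165) and Selp (0.0166 ± 0.00719). Neighbouring ranges overlapped for Vcam1 and Itgam, for Itgb2 and Itga4, for Itga5 and Icam1, and for the pair of selectins, and were separate elsewhere. In the 8 MCAO libraries Selplg still led at 22.0 ± 2.94 RPKM. Itgam came next at 9.03 ± 2.12 RPKM, above Vcam1 at 6.69 ± 0.649 RPKM, with overlapping ranges. Itgb2 reached 5.90 ± 1.73 RPKM, and Itga4 at 2.00 ± 0.117 RPKM fell behind Itga5 at 2.63 ± 0.728 and Icam1 at 2.47 ± 0.990 RPKM, again with overlap.

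Among the endothelial ligands, Vcam1 showed the tightest values. This endothelial partner of the Itga4 integrin on lymphocytes and monocytes (chr3:115903598-115923355) was at 5.18, 4.79 and 4.12 RPKM in Cort+/+ CL and at 6.17, 7.77 and 5.56 RPKM in Cort+/+ MCAO libraries. It was at 5.30, 4.47 and 5.34 RPKM in Cort-/- CL and at 6.78, 6.60, 6.64, 6.96 and 7.05 RPKM in Cort-/- MCAO libraries. No MCAO library reached down to a CL library in either genotype. The log2 fold change was 0.45 ± 0.11 (SE) in Cort+/+ mice (adjusted p = 0.258, limma) and 0.43 ± 0.10 in Cort-/- mice (adjusted p = 0.0540). Over both genotypes Vcam1 rose 1.36-fold (log2 fold change 0.44 ± 0.08, adjusted p = 0.00740).

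Icam1 (chr9:20926672-20940113), the endothelial ligand of the Itgb2 integrins, varied widely between libraries of the same group. The Cort+/+ CL libraries held 2.39, 0.901 and 0.899 RPKM and the Cort+/+ MCAO libraries 1.79, 4.13 and 1.38 RPKM. CL replicate 1 thus exceeded 2 of 3 MCAO libraries. The Cort-/- groups did not overlap, with 1.38, 1.38 and 0.999 RPKM in CL and 3.49, 1.94, 1.57, 3.03 and 2.43 RPKM in MCAO libraries. The log2 fold change over both genotypes was 0.82 ± 0.28 (SE) and did not pass the test (adjusted p = 0.161, limma). Without Cort+/+ CL replicate 1 it was called (adjusted p = 0.0477). That library also held the highest sum of red blood cell markers, 330 RPKM against 87.4 to 257 RPKM in the others, whose part in the result was not tested.

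The selectins were near the limit of detection. Sele (chr1:163867401-163886055), the E-selectin of activated endothelium, had 0 to 5 reads per CL library and 0 to 14 reads per MCAO library. Selp (chr1:163942833-163977595), the P-selectin that endothelial cells and platelets store ready-made, had 1 to 3 reads per CL library and 1 to 35 per MCAO library. Reads of Selp were 45 in 3 Cort+/+ MCAO libraries against 6 in 3 CL libraries, a ratio per library size of 7.53 (95% exact interval 3.20 to 21.6), and 86 in 5 against 6 in 3 libraries in Cort-/- mice, a ratio of 7.42 (3.27 to 20.8). Those intervals cover counting error only and not the spread between animals. Among the Cort+/+ MCAO libraries Selp was at 0.0809, 0.242 and 0.00940 RPKM, so that 1 library exceeded the others and replicate 4, with a single read, lay within the Cort+/+ CL range of 0.00841 to 0.0240 RPKM. All Cort-/- MCAO libraries (0.234, 0.0937, 0.0550, 0.125 and 0.106 RPKM) were above all CL libraries (0.0253, 0.0175 and 0.00898 RPKM). The ratio for Sele was 3.17 over both genotypes (1.68 to 6.50, from 12 CL and 55 MCAO reads), with 0 reads in Cort-/- CL replicate 3 and Cort+/+ MCAO replicate 4, which allows a level of up to 3 reads. Neither selectin passed limma, with adjusted p = 0.0886 for Selp and 0.247 for Sele over both genotypes. On that scale the pseudocount of 0.1 RPKM exceeds every CL value of both genes, so their log2 fold changes of 0.79 ± 0.23 and 0.39 ± 0.16 understate the change in reads.

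Selplg (chr5:113956597-113970705), which encodes the ligand that leukocytes present to selectins and is abundant in microglia, was the most expressed of the 10 genes. Its levels were 14.2, 15.5 and 14.9 RPKM in Cort+/+ CL, 24.2, 23.2 and 17.8 in Cort+/+ MCAO, 15.3, 14.6 and 16.9 in Cort-/- CL, and 25.8, 22.9, 19.2, 19.0 and 24.0 RPKM in Cort-/- MCAO libraries. All MCAO libraries were above all CL libraries. It rose 1.43-fold over both genotypes (log2 fold change 0.51 ± 0.09 (SE), adjusted p = 0.00652, limma), with 0.53 ± 0.13 in Cort+/+ (adjusted p = 0.232) and 0.50 ± 0.12 in Cort-/- mice (adjusted p = 0.0514).

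The integrin chains Itgam and Itgb2 had the largest fitted log2 fold changes of the 10 genes. Itgam (chr7:127661808-127717753), the alpha chain of CD11b/CD18 on myeloid cells, was at 3.50, 4.22 and 3.70 RPKM in Cort+/+ CL and 8.25, 9.64 and 5.38 RPKM in Cort+/+ MCAO libraries. Cort-/- libraries held 4.22, 3.55 and 4.22 RPKM of it in CL and 11.4, 8.56, 7.50, 12.0 and 9.54 RPKM in MCAO libraries. The lowest MCAO library of either genotype, at 5.38 RPKM, was above the highest CL library. Itgam rose 2.39-fold in Cort-/- mice (log2 fold change 1.26 ± 0.18 (SE), adjusted p = 0.00904, limma) and 2.16-fold over both genotypes (1.11 ± 0.14, adjusted p = 0.00143). In Cort+/+ mice its log2 fold change was 0.97 ± 0.20, with adjusted p = 0.167.

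Itgb2 (chr10:77366086-77401542), the beta chain shared by all leukocyte CD18 integrins, was at 2.88, 2.03 and 1.56 RPKM in Cort+/+ CL and 5.42, 6.57 and 3.10 RPKM in Cort+/+ MCAO libraries. The Cort-/- libraries held 2.02, 2.84 and 1.93 RPKM in CL and 8.15, 5.21, 4.28, 7.85 and 6.60 RPKM in MCAO. Again the groups did not overlap in either genotype, although Cort+/+ MCAO replicate 4 was close to Cort+/+ CL replicate 1. Itgb2 rose 2.72-fold in Cort-/- mice (1.44 ± 0.27, adjusted p = 0.0222, limma) and 2.46-fold over both genotypes (1.30 ± 0.20, adjusted p = 0.00473). The log2 fold change in Cort+/+ mice was 1.16 ± 0.30, with adjusted p = 0.272. In Cort-/- mice the call for Itgam held with any 1 library left out, whereas that for Itgb2 was lost without Cort-/- CL replicate 1 or 3 or without Cort-/- MCAO replicate 1, 4 or 5.

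Itgal (chr7:126895432-126934320), the alpha chain of the CD18 integrin typical of lymphocytes, was far scarcer. In Cort+/+ mice it was at 0.143, 0.113 and 0.172 RPKM in CL and 0.235, 0.349 and 0.127 RPKM in MCAO libraries, and the groups overlapped through MCAO replicate 4. In Cort-/- mice its MCAO libraries (0.306, 0.267, 0.196, 0.315 and 0.2003 RPKM) were above the CL libraries (0.136, 0.0848 and 0.145 RPKM), without passing the test (log2 fold change 0.68 ± 0.24, adjusted p = 0.211, limma). Over both genotypes the adjusted p was 0.135. Since 4 alpha chains can pair with Itgb2, their shares of the summed RPKM were compared. Itgam made up 81.8% to 94.2% of it over the 14 libraries and Itgal 1.91% to 4.32%. The share of Itgax, the alpha chain of CD11c on dendritic cells and activated microglia, was 0.893% to 1.74% in CL and 3.23% to 5.75% in MCAO libraries, with no overlap. Itgad filled the remainder and was widest in CL libraries, at 1.72% to 13.4%.

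To test for change in proportion, ratios of paired genes were taken within each library. The pairs were Itgam and Itgal, among the Itgb2 alpha chains, and the endothelial ligands Vcam1 and Icam1. The Itgam to Itgal ratio of RPKM had a median of 24.5 in Cort+/+ CL and 35.0 in Cort+/+ MCAO, and of 30.96 in Cort-/- CL and 37.9 in Cort-/- MCAO libraries. As log2 of (RPKM + 0.1) values, the ratio was higher in MCAO by 0.58 in Cort-/- mice (exact two-sided permutation p = 0.0179, the smallest that 56 regroupings allow, and 0.0714 after adjustment over the 4 ratio tests). It was higher by 0.55 in Cort+/+ mice (exact permutation p = 0.1, the smallest that 20 regroupings allow). All MCAO libraries were above all CL libraries of their genotype on this scale, but the untransformed ratios overlapped and with a pseudocount of 0.01 the difference in Cort-/- mice was 0.25 (exact permutation p = 0.196), so the result rests on the pseudocount added to a scarce transcript. The Vcam1 to Icam1 ratio had medians of 4.58 in Cort+/+ CL and 3.45 in Cort+/+ MCAO, and of 3.83 in Cort-/- CL and 2.90 in Cort-/- MCAO libraries. Its log2 value differed by −0.30 in Cort+/+ mice (exact permutation p = 0.5) and −0.46 in Cort-/- mice (exact permutation p = 0.179), and the groups overlapped in both genotypes. In Cort+/+ mice the sign of that difference turned without MCAO replicate 3, to 0.02.

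**Figure D3:**
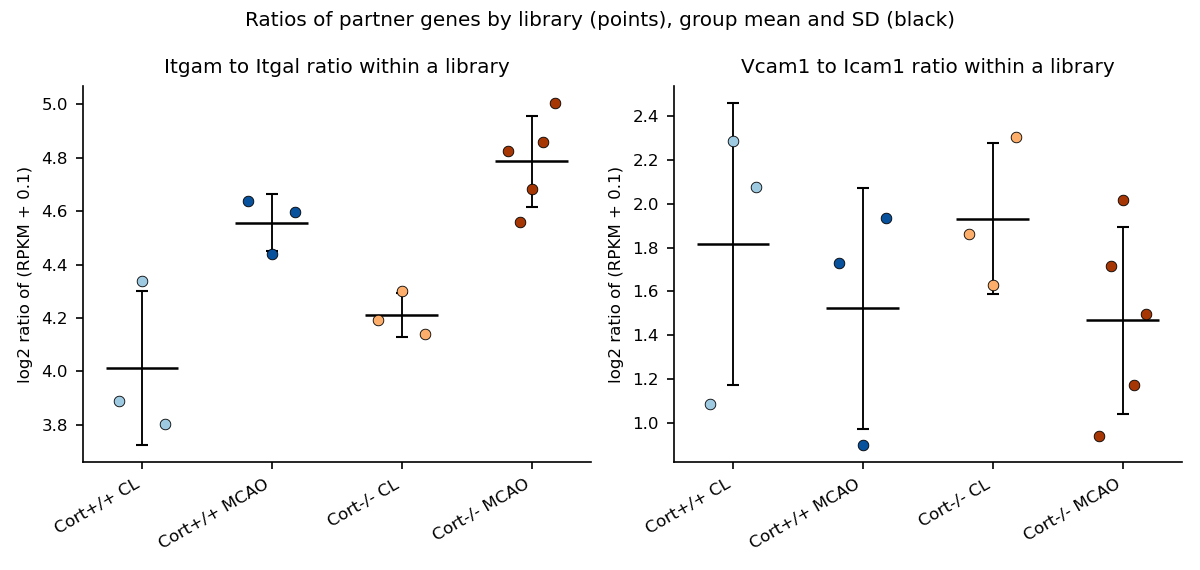
Log2 ratio of (RPKM + 0.1) of Itgam to Itgal (left) and of Vcam1 to Icam1 (right) in each library (points) by group, with group mean and SD in black. For Itgam to Itgal every MCAO library lies above the CL libraries of its genotype, while the groups overlap for Vcam1 to Icam1.

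The alpha chains that pair with the beta chain Itgb1 behaved differently from each other. Itga4 (chr2:79085660-79163467), part of the lymphocyte and monocyte receptor for VCAM and fibronectin, had the smallest difference between hemispheres of the 10 genes. It was at 1.86, 2.11 and 2.31 RPKM in Cort+/+ CL, 1.99 to 2.07 in Cort+/+ MCAO, 1.75 to 2.06 in Cort-/- CL and 1.75 to 2.10 RPKM in Cort-/- MCAO libraries. The log2 fold change over both genotypes was −0.00 ± 0.07 (SE), with a 95% interval from −0.15 to 0.14 that leaves out a change of the size seen for Vcam1. Rescaling to TPM, median-ratio scaling and limma voom each gave a value above 0 in its place. Itga5 (chr15:103252713-103275270), the alpha chain of the fibronectin receptor on endothelium, activated glia and macrophages, was at 1.53, 1.64 and 1.41 RPKM in Cort+/+ CL and 2.04, 2.96 and 1.84 RPKM in Cort+/+ MCAO libraries. Cort-/- libraries were at 1.54, 1.44 and 1.30 RPKM in CL and 3.29, 2.37, 1.73, 3.65 and 3.16 RPKM in MCAO libraries. The MCAO libraries were above the CL libraries in both genotypes, but by a small margin in Cort-/- replicate 3. Itga5 rose 1.64-fold over both genotypes (0.71 ± 0.16, adjusted p = 0.0262, limma), and its log2 fold change was 0.90 ± 0.21 in Cort-/- mice (adjusted p = 0.0514) and 0.52 ± 0.24 in Cort+/+ mice (adjusted p = 0.617). The call over both genotypes was lost without Cort+/+ CL replicate 3, without Cort+/+ MCAO replicate 2 or 3, and without any of the 3 Cort-/- CL libraries.

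**Figure D4:**
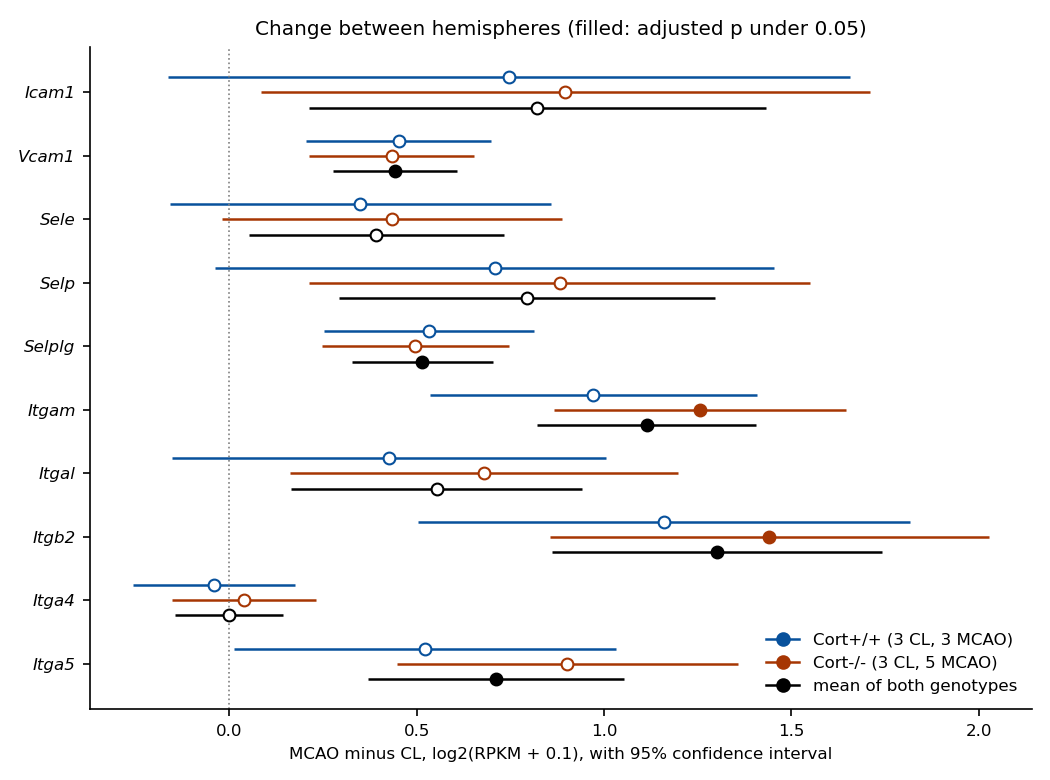
Log2 fold change of MCAO over CL, as the difference of log2(RPKM + 0.1), with its 95% confidence interval from limma for Cort+/+ mice, Cort-/- mice and the mean of both. Filled points have an adjusted p under 0.05, and Itga4 is the gene whose 3 estimates centre on 0.

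Every MCAO library lay above every CL library for 5 of the 10 genes in Cort+/+ mice, against 5.73% of all genes. The same held for 8 of 10 in Cort-/- mice against 4.85%, and for 5 of 10 with both genotypes pooled against 1.72%. The pooled 5 were those called over both genotypes. Within Cort+/+ mice, MCAO replicate 4 was the lowest of its group for 9 of 10 genes and MCAO replicate 3 the highest for 8 of 10. Without replicate 4, limma called Selplg and Itgam in Cort+/+ mice and 8 of 10 genes over both genotypes, all but Icam1 and Itga4. Cort-/- MCAO replicate 3, the library with the fewest reads, was lowest of its group for 6 of 10, and the count of Cort-/- calls was 4 without it. The count in Cort-/- mice was also 4 without Cort+/+ MCAO replicate 3 or 4, and fell to 1 without Cort-/- CL replicate 1 or 3 or Cort-/- MCAO replicate 1, 4 or 5.

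To examine whether the absence of cortistatin altered these genes, genotypes were compared within each hemisphere. None of the 10 genes was called in CL hemispheres (limma), against 0.0152% of all genes called. An unadjusted p under 0.05 was found there for 0 of the 10, against 1802 of all 46102 genes. Log2 fold changes of Cort-/- over Cort+/+ in CL hemispheres ran from −0.13 for Itgal to 0.10 for Vcam1. None was called in MCAO hemispheres either, against 0.0174% of all genes called. An unadjusted p under 0.05 was found there for 0 of the 10, against 1762 of all 46102 genes. There the largest values were 0.37 ± 0.27 (SE) for Itgb2, with a 95% interval from −0.22 to 0.96, and 0.35 ± 0.18 for Itgam, with an interval from −0.04 to 0.74, both with adjusted p = 1. Itga4 and Selplg were closest between genotypes, at −0.03 (interval −0.22 to 0.17) and 0.03 (−0.22 to 0.28). An interaction term, which tests whether the MCAO response depends on genotype, was called for 0 of 10 genes, against 0.00217% of all genes called. Its unadjusted p was under 0.05 for 0 of the 10, against 1527 of all 46102 genes (limma). The term was highest for Itga5 at 0.38 ± 0.32 with an interval from −0.30 to 1.06, and lowest for Selplg at −0.04 (−0.41 to 0.34). limma voom called 0 of 10 in all 3 comparisons, against 15, 9 and 0 of all 46102 genes. The calls for Itgam and Itgb2 in Cort-/- but not in Cort+/+ mice are therefore no measured difference between genotypes, and the wide intervals do not show that the genotypes respond alike. Moreover, Cort-/- mice had 5 MCAO libraries against 3.

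Markers of other cell types moved with these genes. The sum of the 8 resident microglia markers in the table was 97.4 to 114 RPKM in CL and 129 to 214 RPKM in MCAO libraries, without overlap. In Cort-/- mice 3 of the 8 rose, against 1.34% of all genes called and higher. Among those 3, Cx3cr1 and Csf1r had log2 fold changes of 0.70 and 0.67. An unadjusted p under 0.05 was found for 7 of the 8 there, against 5862 of all 46102 genes (limma). These shares over all genes also apply to the other marker lists in Cort-/- mice. Relative to that sum, Itgam was at 3.10% to 4.33% in CL and 4.19% to 5.99% in MCAO libraries, and Itgb2 at 1.57% to 2.71% and 2.41% to 3.93%. Selplg went the other way, at 12.7% to 17.4% in CL and 9.51% to 13.8% in MCAO libraries, with overlapping ranges. Of 12 endothelial markers, Cdh5 and Kdr rose in Cort-/- mice. An unadjusted p under 0.05 was found for 9 of the 12 in Cort-/- mice and 0 in Cort+/+ mice (limma). In Cort-/- mice the sum of the 12 did not overlap between hemispheres, at 91.5 to 98.4 RPKM in CL and 102 to 139 RPKM in MCAO libraries. In Cort+/+ mice the sum overlapped, at 97.7 to 124 and 104 to 119 RPKM, with the highest CL value in replicate 1. Relative to it, Vcam1 was at 4.18% to 5.71% in CL and 4.996% to 6.54% in MCAO libraries. The part of these cell types in the changes was not tested.

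None of the 10 neutrophil markers was called in either genotype or over both, and 0 had an unadjusted p under 0.05 (limma). Their sum was 2.97 to 10.6 RPKM in CL and 2.87 to 16.8 RPKM in MCAO libraries, with the highest value in Cort-/- MCAO replicate 4, and the defining marker Ly6g was above 0 in 7 of 14 libraries and at most 0.0585 RPKM. S100a8 had a log2 fold change of 0.08 and S100a9 of −0.05 in Cort-/- mice (adjusted p = 0.977 and 0.992). Of 8 genes for monocyte-derived cells, 1 was called in Cort-/- mice, with 5 at an unadjusted p under 0.05, 0 in Cort+/+ mice, with 2 at such a p, and 2 over both genotypes (limma). Their sum did not overlap between hemispheres in Cort-/- mice, at 9.59 to 11.3 RPKM in CL and 14.2 to 26.8 RPKM in MCAO libraries, and overlapped in Cort+/+ mice, at 7.51 to 12.4 and 10.8 to 22.9 RPKM. The called gene was Fn1, which vessels and astrocytes also make and which holds most of that sum. Chil3, Plac8 and Ccr2 had log2 fold changes of 2.17, 1.89 and 1.09 in Cort-/- mice without passing the test (adjusted p = 0.320, 0.0761 and 0.295, limma), and Ccr2 was at 0.0171 to 0.697 RPKM. The part of these cells in the changes of Itgam and Itgb2 was not tested. Among 10 T and NK cell genes, 0 rose and 1 fell in Cort-/- mice (limma). The CD3 genes Cd3e, Cd3d and Cd3g stayed at or below 0.0958 RPKM, whereas the T cell receptor gene Trac was at 0.913 to 1.78 RPKM. Trac had a log2 fold change of 0.24 in Cort-/- mice (adjusted p = 0.698, limma). The gene that fell was Cd4 (log2 fold change −1.53, adjusted p = 0.0332, limma). It was at 0.525 to 4.51 RPKM, far above the CD3 genes, and which cells its fall came from was not tested. In Cort-/- mice 0 of 7 border-associated macrophage genes, 0 of 5 B cell genes and 0 of 7 platelet genes were called. Likewise 0 of 5 red blood cell genes, 0 of 7 neuronal genes and 0 of 5 choroid plexus genes were called there. In that order, 2, 2, 1, 0, 2 and 0 genes of these lists had an unadjusted p under 0.05 in limma. By contrast, 2 of 6 astrocyte genes and 1 of 8 pericyte and smooth muscle genes rose in Cort-/- mice, with 5 and 4 at such a p.

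The rest of the adhesion cascade was examined through 5 lists with 92 tested genes. In Cort-/- mice 14 rose and 0 fell, against 1.34% of all genes called and higher. Over both genotypes 23 rose and 1, Rasgrp2, fell, against 2.52% of all genes called and higher. These shares also apply to the counts per list that follow. In Cort+/+ mice limma called 0, with 25 at an unadjusted p under 0.05 and 1 called by limma voom. Of all 46102 genes, 3626 had such a p there and limma voom called 54. Among 21 other integrin subunits, 4 rose in Cort-/- mice (Itga6, Itgax, Itgb1 and Itgb5) and 6 over both genotypes. Itgb1, the beta partner of Itga4 and Itga5, went from 14.6 to 20.5 RPKM in Cort-/- mice (log2 fold change 0.48 ± 0.08 (SE), adjusted p = 0.0147, limma). Itgb5, which pairs with the alpha v chain to bind vitronectin, went from 12.3 to 19.2 RPKM over both genotypes (0.61 ± 0.09, adjusted p = 0.00376), and had a log2 fold change of 0.59 in Cort+/+ mice (adjusted p = 0.209). The laminin receptor chain Itga6 had a log2 fold change of 0.75 in Cort-/- mice, and Itga7, a laminin receptor chain of muscle and vessel wall, of 0.48 over both genotypes (adjusted p = 0.0292).

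Among 20 genes for selectins and the synthesis of their ligands, 1 rose in Cort-/- mice and 4 over both genotypes. Cd44, a hyaluronan receptor that also serves as an E-selectin ligand, went from 0.923 to 3.69 RPKM in Cort-/- mice (1.84 ± 0.28, adjusted p = 0.0103, limma), and its log2 fold change in Cort+/+ mice was 1.66 with adjusted p = 0.135. Gcnt1, which builds the glycan core that selectins recognise, had a log2 fold change of 0.77 over both genotypes (adjusted p = 0.0132), and the sialomucin Podxl one of 0.35. Of 19 other immunoglobulin adhesion molecules and genes of transmigration, F11r and Cdh5 rose in Cort-/- mice and over both genotypes. F11r, a tight junction molecule, went from 2.70 to 4.85 RPKM in Cort-/- mice (0.82 ± 0.10, adjusted p = 0.00596) and had a log2 fold change of 0.48 in Cort+/+ mice (adjusted p = 0.212). Cdh5, the cadherin of endothelial junctions, had a log2 fold change of 0.55 in Cort-/- mice (adjusted p = 0.0479).

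Integrins are activated from inside the cell, and 4 of 18 genes for that step rose in Cort-/- mice, with 6 rising and 1 falling over both genotypes. Dock2, Vav1 and Apbb1ip work with Rac or Rap GTPases in blood cells and microglia. They had log2 fold changes of 1.48 ± 0.25, 1.39 ± 0.24 and 1.09 ± 0.18 (SE) in Cort-/- mice, with adjusted p = 0.0149, 0.0156 and 0.0145 (limma). Dock2 had one of 1.23 in Cort+/+ mice (adjusted p = 0.202). Fermt3, the kindlin of blood cells, had a log2 fold change of 1.07 over both genotypes (adjusted p = 0.0206). Of 14 integrin ligands in matrix and plasma, 3 rose in Cort-/- mice and 5 over both genotypes. Spp1 (osteopontin) went from 9.95 to 107 RPKM in Cort-/- mice (3.28 ± 0.53, adjusted p = 0.0130, limma), Tnc (tenascin C) from 0.765 to 2.74 RPKM (1.69 ± 0.25, adjusted p = 0.00904) and Fn1 (fibronectin) from 8.23 to 14.01 RPKM (0.75 ± 0.14, adjusted p = 0.0231). In Cort+/+ mice Tnc had a log2 fold change of 1.37 (adjusted p = 0.161). The medians of the 5 lists in Cort-/- mice lay between 0.09 for immunoglobulin adhesion molecules and 0.66 for integrin ligands, beside 0.78 for the 10 genes described.

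**Figure D5:**
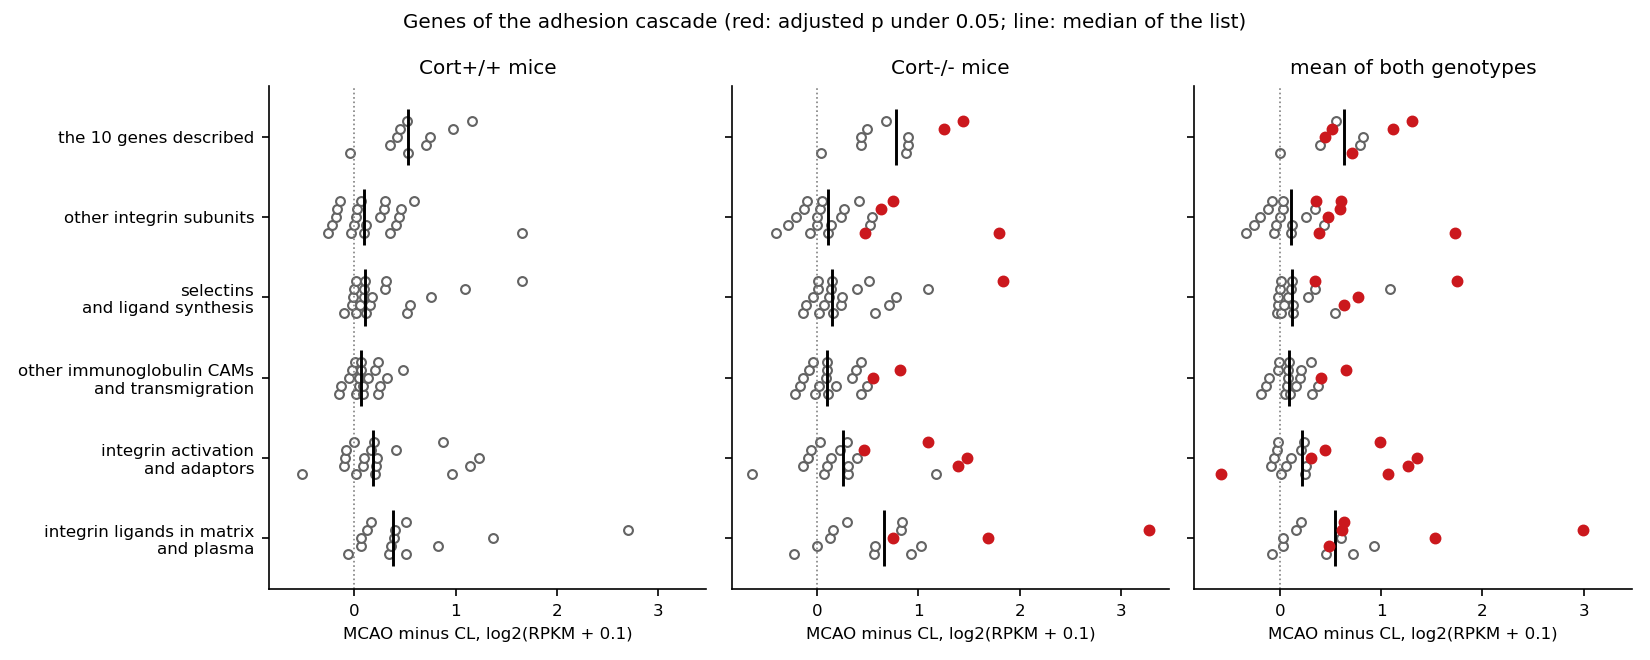
Log2 fold change of MCAO over CL, as the difference of log2(RPKM + 0.1), for the 10 genes described and the tested genes of 5 adhesion lists (points) in Cort+/+ mice, Cort-/- mice and the mean of both, with the list median as a line. Red points, 14 of the 92 list genes in Cort-/- mice and 0 in Cort+/+ mice, have an adjusted p under 0.05.

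Across the 14 libraries the 10 genes fell into patterns, described here by Pearson's r of log2(RPKM + 0.1) without a test, since libraries share hemisphere and genotype. Itgam and Itgb2 had an r of 0.94, Itgam and Itga5 of 0.93, and Vcam1 and Itgam of 0.91, while r of Itga4 with Icam1, Vcam1, Itgb2 and Selplg was −0.30, −0.30, −0.23 and −0.23. The genes most like Itgb2 were Vav1 (r = 0.99), D17H6S56E-5 and Dock2, and those most like Itgam were Pla2g4a (r = 0.98), Myo1f and Mrps6. Selplg was closest to Itgb5 (r = 0.97), Gal3st4 and Olfml3, and Itga5 to the interferon-response genes Ifih1 (r = 0.99), Parp9 and Parp10. Vcam1 was closest to Vav2 (r = 0.94), Nfkb2 and Ch25h, Icam1 to Slc1a5 (r = 0.96), Ms4a6c and Sat1, and Selp to Tcf19 (r = 0.96), Trim21 and Renbp. For Sele, read at a few counts, the closest were Slc11a1 (r = 0.84), Renbp and Tgfbr1, and for Itgal they were Plekhg2 (r = 0.93), Otulinl and Tcf19. Itga4 was closest to mt-Nd6 (r = 0.86), Rtn4 and Itgb8, whose mean RPKM hardly differed between hemispheres for Rtn4 (90.3 in CL and 89.3 in MCAO) and Itgb8 (7.21 and 7.34).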

How the data were processed

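RNA from 14 brain hemispheres was sequenced as stranded mRNA libraries. The authors aligned and counted the reads with the reanalyzerGSE pipeline on GRCm39 with GENCODE M28 and deposited RPKM values of 46904 genes. Strand settings of the counting are not given in the sources used here. Whole reads were recovered from the RPKM values (100% of 495656 values above 0 within 0.05 reads of a whole number), which gave 25989679 to 43032304 reads per library, median 36026780.

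All 10 members and the pathway and marker lists were chosen with earlier results of these data known. Groups came from the labels. limma 3.58.1 in R 4.3.3, with a trend in the prior variance, was fitted to log2(RPKM + 0.1) of the 46102 genes above 0 in at least 2 libraries, with Benjamini-Hochberg adjustment over all of them and calls at an adjusted p under 0.05. Fold changes on this scale understate changes of low genes. Since the replicates are separate samples whose animals the labels do not number, p-values measure the spread between these samples. Replicates of one group differed by more than sampling noise in every pair. Ratios were compared by exact permutation, and pooled selectin reads by exact binomial intervals (SciPy 1.17.1), which cover counting error only. On simulated reads for the Cort-/- comparison, limma recovered 61% of genes changed 2-fold and 100% of those changed 4-fold. There were 35 false calls among 44244 genes, which is a far larger share of the calls than of the genes. Only 4 of the 35 fell on genes that averaged at least 0.5 RPKM. The changed genes were drawn from well-read genes only, and every gene had the same fixed dispersion. These rates therefore do not describe scarce genes such as Sele and Selp, or genes with a wider spread between libraries.

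Named genes were all 10 members, per list and hemisphere comparison up to 3 called genes of largest fold change that averaged 1 RPKM or more (or the gene of smallest p where none was called), and for each member the 3 genes of highest correlation. Itgax and Rasgrp2 fall outside that rule where named, and were chosen after their values were seen. Gene positions are from GENCODE M39 on GRCm39. The alternatives were other pseudocounts, filters, scalings and tools, a replicate block, and leaving out each library. The values of 1 marker gene are not reported here.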

Additional observations from a re-analysis of the deposited data

How the results depend on the processing

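In Cort-/- mice, where Itgam and Itgb2 were called, 5 of the 10 genes were called with a pseudocount of 0.01, with genes of mean at least 0.5 RPKM, with median-ratio scaling and with limma voom, and 4 with quantile normalization. Over all genes the calls there were 904 with that pseudocount, 818 with median-ratio scaling and 744 with quantile normalization. Leaving out 1 library gave 1 to 4 calls in Cort-/- mice, 0 to 2 in Cort+/+ mice (2 without Cort+/+ MCAO replicate 4) and 4 to 8 over both genotypes. Of the other adhesion genes, 1 was called in Cort+/+ mice with a pseudocount of 0.01 and 1 with limma voom, and 26 in Cort-/- mice with limma voom. Leaving out 1 library gave 0 to 7 of them in Cort+/+ mice, 2 to 20 in Cort-/- mice and 14 to 30 over both genotypes. Over all genes, the 792 calls in Cort-/- mice became 1290 with that filter on the mean, 1415 with limma voom and 130 to 1180 with 1 library left out (130 without Cort-/- CL replicate 1), the 5 in Cort+/+ mice became 2 with a pseudocount of 1, 22 with one of 0.01, 28 with the filter, 9 as TPM, 13 with quantile normalization, 54 with limma voom, 1 with the compared groups alone and 3 to 159 with 1 library left out, and the 1579 over both genotypes became 929 to 1904 with 1 library left out. The filter at a mean of 0.5 RPKM left no value for Sele, Selp and Itgal.

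Samples shared only a replicate number: same-numbered CL and MCAO libraries of a genotype had correlations of their deviations from −0.239 to 0.316 over 5 pairs, of which 1 was over 0.1, against −0.316 to 0.404 over 19 pairs with other numbers. With the replicate block, 0 of the 10 genes and 0 other adhesion genes were called in Cort-/- mice and over both genotypes, where limma also called 0 of all 46102 genes. The Itgam to Itgal difference in Cort-/- mice was 0.48 under the block (exact permutation p = 0.25), 0.25 with a pseudocount of 0.01 (exact permutation p = 0.196) and 0.52 to 0.63 with 1 library left out. The Vcam1 to Icam1 difference in Cort+/+ mice ran from −0.66 to 0.017 with 1 library left out. The causes were not tested.

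Signs turned only for values near 0 or without a call. For Itga4 the log2 fold change of MCAO over CL was −0.032 with quantile normalization in Cort-/- mice, and over both genotypes 0.027 as TPM, 0.0029 with median-ratio scaling and 0.048 with limma voom. With 1 library left out it ran from −0.12 to 0.029 in Cort+/+ mice, −0.026 to 0.085 in Cort-/- mice and −0.041 to 0.034 over both. Between genotypes in CL hemispheres, Icam1 was 0.045 as TPM and Sele −0.031 with limma voom, and leaving out 1 library gave −0.24 to 0.42 for Icam1, −0.11 to 0.31 for Itgb2, −0.074 to 0.22 for Sele and −0.034 to 0.067 for Selp. In MCAO hemispheres, Itga4 was 0.028 as TPM, and under the replicate block Icam1 was −0.062, Selplg −0.036 and Itga4 0.035. There, leaving out 1 library gave −0.18 to 0.58 for Icam1, −0.047 to 0.016 for Itga4, −0.14 to 0.36 for Itgal, −0.12 to 0.44 for Sele, −0.21 to 0.62 for Selp, −0.11 to 0.12 for Selplg and −0.024 to 0.21 for Vcam1. The interaction under the replicate block was −0.72 for Icam1, −0.13 for Sele, −0.27 for Selp, −0.0079 for Itgal and −0.38 for Itgb2. With 1 library left out it was −0.29 to 0.60 for Icam1, −0.0048 to 0.49 for Itgal, −0.026 to 0.50 for Itgb2, −0.19 to 0.36 for Sele, −0.22 to 0.60 for Selp, −0.17 to 0.047 for Selplg and −0.12 to 0.12 for Vcam1. Depth limits Sele and Selp most, with at most 14 and 35 reads per library.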
